A study of Rattus norvegicus with 12 samples.

Results

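The Zfhx and Zeb genes encode zinc finger homeobox proteins, transcription factors that carry both zinc fingers and homeodomains. The group taken here had 5 genes, Zfhx2, Zfhx3, Zfhx4, Zeb1 and Zeb2, found as rows whose platform annotation names exactly 1 gene symbol equal to one of these. Zfhx2 was read by 7 probe sets, Zeb1 by 1 and Zeb2 by 1, which makes 9 of 29214 probe sets and 3 of 14506 named genes. The annotation gave the symbols Zfhx3 and Zfhx4 to 0 probe sets, alone or among several genes. Its 13581 probe sets without a name could not be searched for them, and these 2 genes were not analysed here. The family was chosen by the genotype difference of Zfhx2 in these same arrays, where 1 of its 7 probe sets passed the threshold. The differences between genotypes are therefore given for all members as a description, without a test.

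The tissue was the ganglionic eminence of day 14 rat embryos, medial and lateral parts together, the swellings of the ventral forebrain that give rise to the striatum and to many interneurons. The 6 homozygous embryos carried BACHD, a bacterial artificial chromosome with the whole human gene for mutant huntingtin (96 CAG repeats), and the 6 wild-type embryos carried no transgene. The submitters' design text places the embryos in litters of 3 dams taken on 1 day, with 1 embryo for every array. The dam and the sex of each embryo were not known here. Embryos of a litter share a mother, so p-values may be too small, or too large if litters held both genotypes.

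Zfhx proteins are very large and have several homeodomains and many C2H2 zinc fingers. In mouse, Zfhx2 is expressed in differentiating neurons, and Zfhx3 acts in striatal projection neurons and in the suprachiasmatic nucleus. Zeb proteins have a pair of zinc finger clusters, bind E-box sequences with the core CACCTG, and repress transcription with the corepressor CtBP. Zeb1 is known in neural progenitors and in epithelial-mesenchymal transition. Zeb2 also binds Smad proteins, and in the mouse medial eminence it lowers Nkx2-1 in migrating cortical interneurons.

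The promoters of the 3 measured genes are shown because the E-box is the sequence through which Zeb proteins are known to act. Each run covers 250 bases before to 50 bases after the annotated start, from RefSeq on GRCr8, and capitals mark CACCTG or its reverse complement CAGGTG.
Zfhx2 promoter, chr15:32535036-32535335, minus strand: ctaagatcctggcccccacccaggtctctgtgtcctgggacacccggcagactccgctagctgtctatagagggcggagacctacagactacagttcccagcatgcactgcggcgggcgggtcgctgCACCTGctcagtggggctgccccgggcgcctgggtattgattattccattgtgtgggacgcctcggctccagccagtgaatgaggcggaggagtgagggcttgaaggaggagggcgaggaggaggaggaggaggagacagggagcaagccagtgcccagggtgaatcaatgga
Zeb1 promoter, chr17:56810604-56810903, minus strand: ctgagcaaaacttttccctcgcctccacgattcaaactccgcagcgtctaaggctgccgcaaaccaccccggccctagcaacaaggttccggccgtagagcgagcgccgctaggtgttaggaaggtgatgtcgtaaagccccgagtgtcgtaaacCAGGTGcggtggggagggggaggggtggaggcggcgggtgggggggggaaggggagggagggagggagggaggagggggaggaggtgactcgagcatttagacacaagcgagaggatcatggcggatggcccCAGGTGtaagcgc
Zeb2 promoter, chr3:49754274-49754573, minus strand: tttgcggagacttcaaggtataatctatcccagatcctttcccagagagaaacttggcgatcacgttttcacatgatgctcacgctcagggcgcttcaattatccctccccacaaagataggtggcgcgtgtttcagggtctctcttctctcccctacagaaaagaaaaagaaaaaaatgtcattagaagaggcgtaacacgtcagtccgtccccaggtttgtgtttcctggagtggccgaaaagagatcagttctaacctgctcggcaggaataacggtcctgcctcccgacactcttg

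The Zfhx2 window held CACCTG once, with its first base at -123 from the start. The Zeb1 window held CAGGTG at -95 and at 38, and the Zeb2 window held no match. Of 33469 promoters of this length, 6304 (18.8%) held at least 1 match on either strand. The array measured no binding, so these matches are letters in the windows and nothing more.

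The arrays behind the values were alike in scale. Array medians lay between 7.69 and 7.76 in homozygous arrays and between 7.67 and 7.71 in wild-type arrays (log2 intensity), and the medians of 5 of 6 homozygous arrays exceeded those of all wild-type arrays. Over all probe sets the median difference, homozygous minus wild type, was 0.03 on the log2 scale, and 64.8% of probe sets had a difference above 0. This shift differed with brightness. The median difference was 0.05 among probe sets dimmer than the median probe set. Among brighter ones it was 0.01, with 55.6% above 0, and all measured probe sets of the family were among these. Htt, the rat huntingtin gene and the check of the labels, read 10.26 ± 0.0967 in homozygous and 9.97 ± 0.114 in wild-type embryos (SD, n = 6 each; adjusted p = 0.0408 in limma), and the groups did not overlap. Whether its probes also read transcripts of the human transgene was not known here, and the check of the labels relies on that. The 7 measured markers of the eminence, Dlx1 and Gad1 among them, were all brighter than the median probe set. None of the measured pallial, endothelial or erythroid markers lay below it either, so this does not set the eminence apart. Wild type 1 and 2 stood apart from the other wild-type arrays on the first component of the variation within genotypes, which held 24.1% of it, with scores of -0.44 and -0.62 against 0.10 to 0.38. Values without these 2 arrays are given beside the differences and correlations that their absence moved most.

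Zfhx2 read higher in homozygous embryos in all 7 of its probe sets. The differences ran from 0.06 to 0.20 on the log2 scale with a median of 0.15, that is, 4.59% to 15.0% higher. The probe sets differed in how clearly the genotypes came apart: in 2 of them every homozygous value lay above every wild-type value, and in 5 the groups overlapped. Of the 9 probe sets of the family, 1 was called at an adjusted p of 0.05 in limma, against 0.424% of all probe sets in either direction and 0.226% upward. The 2 without overlap stand against 1.16% of all probe sets in that direction. Since the family was chosen on this contrast, these shares are given only as background.

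Probe set 10783759 showed the widest separation relative to its spread. Its log2 intensity was 9.99 at the lowest, 10.07 at the median and 10.12 at the highest in homozygous embryos, against 9.82, 9.86 and 9.91 in wild-type embryos. All 6 homozygous values were above all 6 wild-type values, and the difference was 0.20 ± 0.031 (SE, n = 6 per group), or 1.15-fold. This was the probe set that passed the threshold, and the call depended on which arrays were present. It was lost without homozygous 1, 2, 3, 4 or 5 or wild type 4, 5 or 6, in 8 of 12 fits with 1 array left out, while the difference stayed at 0.16 or more in every setting tried.

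Probe set 10783757 had its lowest, median and highest values at 10.30, 10.37 and 10.40 in homozygous embryos, against 10.04, 10.20 and 10.27 in wild-type embryos. The groups again did not overlap, but here the wild-type embryos were the more scattered group. Its difference was 0.18 ± 0.037 (log2, SE).

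In the other 5 probe sets wild-type values reached into the homozygous range. Probe set 10783753 read 9.79, 9.85 and 9.89 in homozygous and 9.55, 9.68 and 9.82 in wild-type embryos (lowest, median, highest), and 5 of 6 homozygous values lay above every wild-type value. Probe set 10783751 read 10.43, 10.53 and 10.58 in homozygous and 10.25, 10.36 and 10.50 in wild-type embryos, with 4 of 6 above. The differences were 0.17 ± 0.046 and 0.15 ± 0.042 (log2, SE).

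For 10783745 the values were 9.31, 9.40 and 9.56 in homozygous and 9.12, 9.32 and 9.41 in wild-type embryos, a difference of 0.14 ± 0.057. The smallest differences belonged to the dimmest and the brightest of the 7. Probe set 10783755, the dimmest, read 8.99, 9.11 and 9.20 in homozygous and 8.89, 9.04 and 9.19 in wild-type embryos (0.07 ± 0.055). This difference depended on single arrays and on scaling: it was 0.04 without wild type 6, 0.12 without wild type 1 and 2, and 0.03 with arrays centred on their medians.

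The brightest, 10783749, read 10.71, 10.72 and 10.81 in homozygous and 10.57, 10.60 and 10.92 in wild-type embryos (0.06 ± 0.056). Its wide wild-type spread, with an SD of 0.147 against 0.0389 in homozygous embryos, came from wild type 1 and 2, at 10.80 and 10.92, while the other 4 wild-type values lay at 10.57 to 10.61. Without wild type 1 and 2 its difference was 0.16 ± 0.026. It was 0.11 without wild type 2 alone and 0.03 with arrays centred on their medians. Of the 7 Zfhx2 probe sets, 5 were called without these 2 arrays (10783749, 10783751, 10783753, 10783757 and 10783759), in a fit that called 582 probe sets in all against 124 with them. Leaving them out was chosen after the data were seen. They held the 2 highest wild-type values of 10783749 and the 2 highest wild-type averages over the 7 probe sets (9.97 and 9.94). Both differences therefore had to widen without them, and no conclusion is drawn from these calls.

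**Figure D1:**
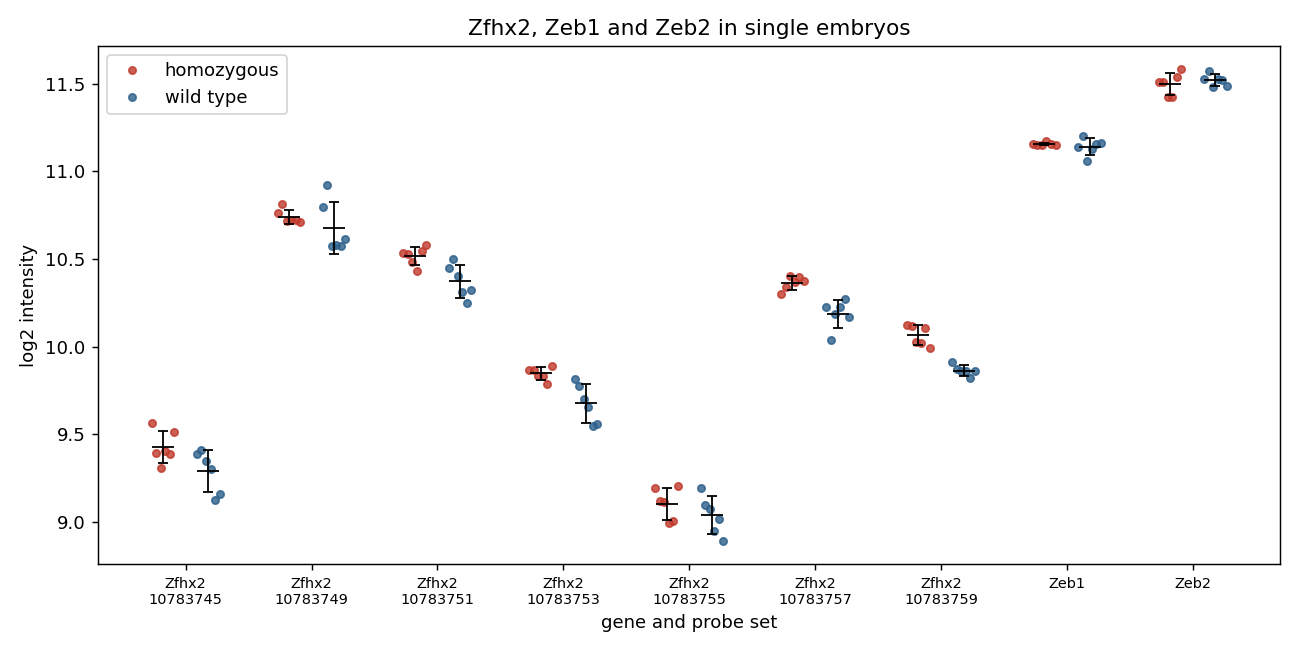
Log2 intensity of each probe set of Zfhx2, Zeb1 and Zeb2 in single embryos, homozygous (red) left of wild type (blue). Points are embryos, and bars show the mean ± SD of 6. Groups are separate in Zfhx2 10783757 and 10783759 and overlap in the other 7 probe sets.

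Averaged over its 7 probe sets, Zfhx2 read 10.01 ± 0.0330 in homozygous and 9.87 ± 0.0728 in wild-type embryos (log2, SD, n = 6 each), a difference of 0.14. The averages ran from 9.97 to 10.05 in homozygous embryos and from 9.79 to 9.97 in wild-type embryos. The groups met at their edges, where homozygous 4 and wild type 1 both stood at 9.97. With every array centred on its own median the averaged difference was 0.10, and with quantile normalization and with cyclic loess it was 0.14. Without wild type 1 and 2, which held the highest wild-type averages, it had to rise and was 0.18. Every Zfhx2 probe set kept a difference above 0 in all 24 other settings.

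**Figure D2:**
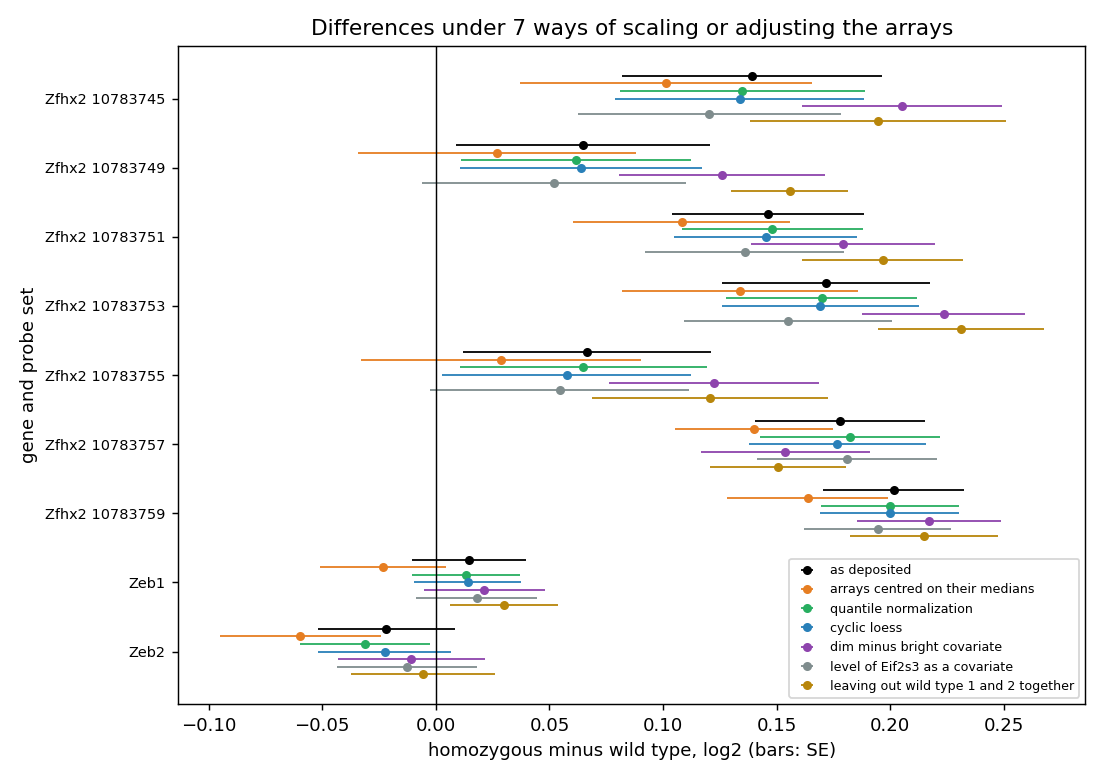
Difference between homozygous and wild-type embryos (log2, horizontal axis) with its SE for each probe set, as deposited and with 6 other scalings, covariates or array choices. The Zfhx2 points lie between 0.03 and 0.23, right of 0, and those of Zeb1 and Zeb2 lie between -0.06 and 0.03.

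Zeb1 and Zeb2 differed little between genotypes. Zeb1 read 11.15, 11.15 and 11.17 (lowest, median, highest) in homozygous and 11.06, 11.15 and 11.20 in wild-type embryos, so the homozygous values lay inside the wild-type range. The difference was 0.01 ± 0.025 (log2, SE), and it was below 0 with arrays centred on their medians (-0.02) and without wild type 3 (-0.00227), so its direction was not settled. The homozygous embryos were close together for Zeb1, with an SD of 0.00770 against 0.0491 in wild-type embryos.

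Zeb2 read 11.42, 11.51 and 11.58 in homozygous and 11.48, 11.52 and 11.58 in wild-type embryos, and the groups overlapped. Homozygous 3 and 4 lay below every wild-type value, and homozygous 6 lay just above every wild-type value. The difference was -0.02 ± 0.030 (log2, SE). It stayed below 0 in all 24 other settings, between -0.06 and -0.01. Here the homozygous group was the wider one, with an SD of 0.0639 against 0.0333.

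The probe sets of Zfhx2 did not follow each other equally from embryo to embryo. After the mean of each genotype was removed, all 21 pairs had a median Pearson r of 0.42 over 12 embryos. Probe set 10783757 was then set apart because its r with the rest was lowest in these same values. The 15 pairs among the other 6 probe sets had r between 0.20 and 0.84, with a median of 0.66. Probe set 10783757 ran against each of these 6, with r between -0.70 and -0.21 and a median of -0.49. Across the whole table, with nothing set apart, 1693 pairs of distinct probe sets with the same gene symbol had a median r of 0.82. Their lower quartile was 0.53. An r under 0 was found in 7.74% of them and an r under -0.5 in 0.65%. Probe set 10783757 had r of -0.56, -0.70 and -0.61 with 10783745, 10783749 and 10783751. Arrays, labelling and scaling are shared by all points of such a correlation, and overlap of probes between sets was not known.

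Each Zfhx2 probe set was also set against the mean of the other 6, in 7 comparisons chosen after the data were seen. Probe sets of 1 gene share a target and arrays, so a relation was likely in advance. Each probe set is also part of the mean used for the others, so the 7 comparisons are not independent. The p-values are therefore given as description, and no conclusion is drawn from a pass. Probe set 10783753 followed the rest most closely, with r = 0.92 and rho = 0.88 (permutation p = 0.00077 and 0.00243, adjusted p = 0.00539 and 0.0100, 2-sided, n = 12). It kept r = 0.83 without the 2 embryos farthest from the median. All passes named here were lost without wild type 1 and 2, as given after the last of them. Probe sets 10783751, 10783745 and 10783755 passed as well, at r of 0.82, 0.76 and 0.75 (adjusted permutation p = 0.0197, 0.0236 and 0.0197) and rho of 0.85, 0.76 and 0.83 (0.0102, 0.0220 and 0.0100). Without the 2 farthest embryos their r was 0.75, 0.70 and 0.76. Without wild type 1 and 2, 0 of 7 comparisons passed: r was 0.77 for 10783753, 0.68 for 10783751, 0.69 for 10783745 and 0.59 for 10783755 (adjusted permutation p = 0.0945, 0.117, 0.117 and 0.151, n = 10), with rho of 0.73, 0.59, 0.60 and 0.48 (0.183, 0.232, 0.232 and 0.232).

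Probe set 10783749 did not pass (r = 0.61, rho = 0.60, adjusted permutation p = 0.156 and 0.135), and neither did 10783759, the one called between genotypes (r = 0.36, rho = 0.41, adjusted permutation p = 0.156 and 0.174). Without the 2 farthest embryos they stood at r = 0.51 and 0.21, and without wild type 1 and 2 at 0.04 and 0.15. For 10783757 the relation was negative but did not pass, with r = -0.59 and rho = -0.48 (adjusted permutation p = 0.141 and 0.182), -0.65 without the 2 farthest embryos and -0.58 without wild type 1 and 2. It was negative within homozygous embryos (-0.74) and within wild-type embryos (-0.55).

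**Figure D3:**
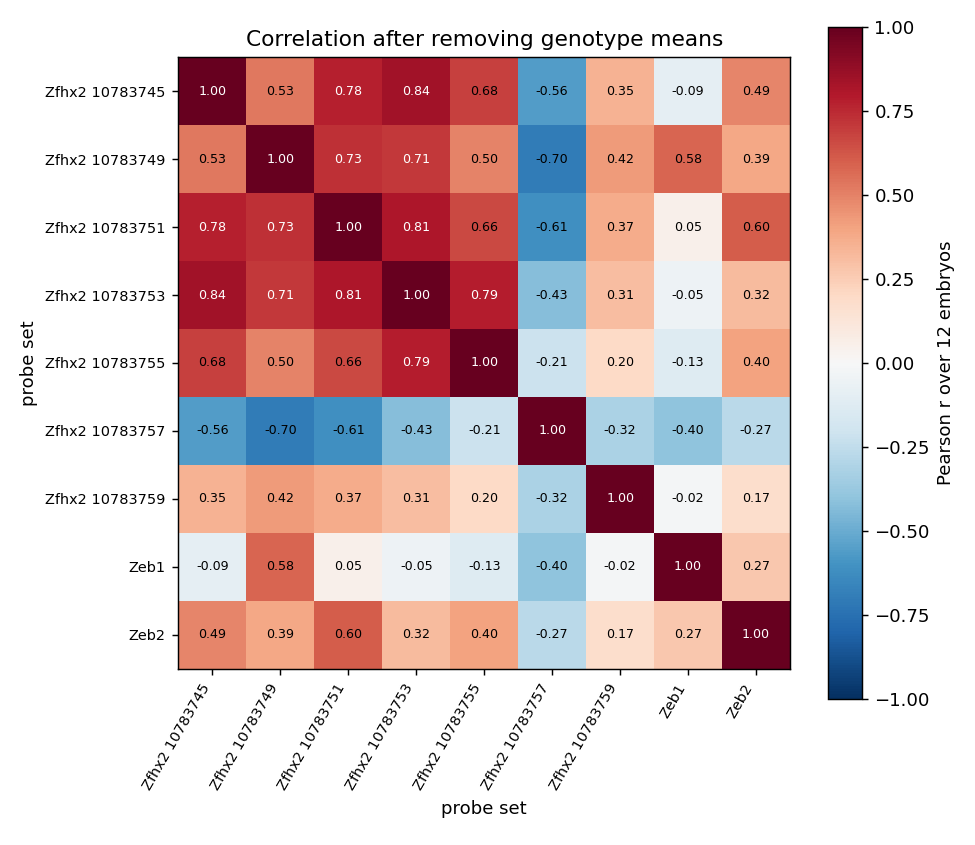
Pearson r between probe sets over 12 embryos, after the mean of each genotype was removed (red positive, blue negative). Zfhx2 10783757 is negative with each of the other 8 probe sets, from -0.70 to -0.21.

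The variation between embryos went along with variation of the whole array. On the first component within genotypes, r was between -0.90 and -0.64 for 10783745, 10783749, 10783751, 10783753 and 10783755, -0.38 for 10783759 and 0.59 for 10783757. Zeb1 and Zeb2 stood at -0.47 and -0.49. Without wild type 1 and 2 the median r among the 6 probe sets fell to 0.27, against 0.66 with them, so much of the agreement rests on these arrays, while the median r with 10783757 was -0.48. With 1 array left out, the median r with 10783757 moved both ways, from -0.69 without wild type 1 to -0.24 without wild type 2. The part of the array-wide component in the genotype difference was not tested. With the gap between dim and bright probe sets of each array as a covariate, the averaged difference of Zfhx2 was 0.18.

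**Figure D4:**
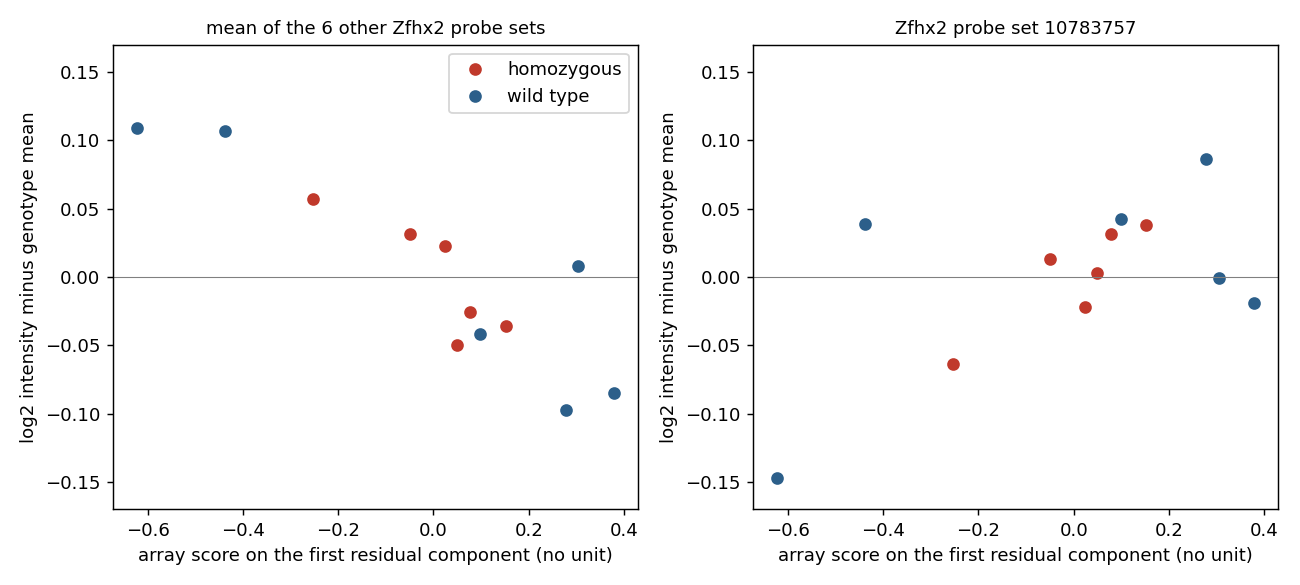
Deviation of each embryo from its genotype mean (log2) against the score of its array on the first component within genotypes, for the mean of 6 Zfhx2 probe sets (left) and for 10783757 (right), with homozygous embryos in red and wild-type embryos in blue. Wild type 2, at a score of -0.62, is the highest embryo on the left and the lowest on the right. Wild type 1, at a score of -0.44, is nearly as high on the left but lies above 0 on the right.

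Genes with the most similar pattern over the 12 embryos, genotype means removed, were found among 14505 named genes by Pearson r. The mean of the Zfhx2 probe sets was followed most closely by Kdm6b, a histone H3 lysine demethylase (r = 0.96), Cttnbp2nl (0.94) and Aimp2, of the aminoacyl-tRNA synthetase complex (0.94). The brightest Zfhx2 probe set was followed by Crtap, Higd2a and Naa20 (0.97, 0.97 and 0.96), genes other than the 3 that followed the mean. Zeb1 was followed by Mbnl2, a splicing regulator (0.93), the olfactory receptor gene Or6c201 (0.93) and Golt1b (0.92). Zeb2 was followed by Pclo, of the presynaptic active zone (0.93), the NMDA receptor subunit gene Grin2b (0.93) and Rasgrp3 (0.91). Without wild type 1 and 2, r was 0.38 to 0.56 for the 3 genes of the brightest Zfhx2 probe set, 0.83 to 0.88 for those of the Zfhx2 mean, and 0.88 to 0.93 for those of Zeb1 and Zeb2. None of these 12 genes was called between genotypes, and each was picked as the highest of many correlations over few embryos.

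Among genes that neighbour the 5 family members in the RefSeq table, the nearest 2 measured on either side gave 20 genes, of which none was called in limma and 3 (Thtpa, Acvr2a and Mtpap) had an unadjusted p under 0.05. Of all named genes, 15.1% had an unadjusted p under 0.05. Thtpa, for thiamine triphosphatase, overlaps the annotated span of Zfhx2 on the other strand. It read 9.97 ± 0.0589 in homozygous and 10.09 ± 0.0492 in wild-type embryos (SD, n = 6 each), a difference of -0.11 ± 0.034 (SE, adjusted p = 0.154) that ran opposite to Zfhx2. Whether probes of one gene read transcripts of the other was not tested. On the other side, Ngdn stood at 0.02 ± 0.055. Acvr2a, an activin receptor gene beside Zeb2, read 10.64 ± 0.0712 in homozygous and 10.80 ± 0.0715 in wild-type embryos and did not pass (-0.16 ± 0.040, adjusted p = 0.0962). Mtpap, beside Zeb1, stood at 0.09 ± 0.036 (adjusted p = 0.289). The other 16 were Myh7 and Jph4 near Zfhx2, Wwp2, Psmd7, Pmfbp1 and Dhx38 near Zfhx3, Pkia, Pex2, Hnf4g and Ythdf3 near Zfhx4, Kif5b, Arhgap12 and Zfp438 near Zeb1, and Arhgap15, Gtdc1 and Orc4 near Zeb2. Their differences ran from -0.06 (Gtdc1) to 0.10 (Myh7) on the log2 scale.

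The pathways around the family were followed in 8 gene lists with 103 measured genes. None was called in limma, against 0.469% called among all 14506 named genes. At an unadjusted p under 0.05 there were 12 of 103, against 15.1% of all named genes. The median difference over all named genes was 0.02 (log2). Of 7 other zinc finger homeobox genes, 3 stood above 0 and 4 below, with a median of 0.00 (-0.00468). Homez stood at 0.07 ± 0.035, Tshz3 at 0.07 ± 0.040 and Adnp at -0.04 ± 0.026 (adjusted p = 0.356, 0.434 and 0.510).

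Of the measured genes listed as partners of the Zeb and Zfhx proteins none was called, and their list medians lay close to 0. The 13 Smad, CtBP and coactivator genes had a median of -0.01 (log2). The acetyltransferase gene Ep300 stood at 0.08 ± 0.034, the corepressor gene Ctbp2 at -0.06 ± 0.023 and the inhibitory Smad7 at -0.13 ± 0.059 (adjusted p = 0.283, 0.285 and 0.323). NuRD is a nucleosome remodelling and deacetylase complex whose subunit Chd4 binds ZFHX4 in human glioblastoma cells. Of its 14 listed genes 11 were measured, with a median of 0.01. Chd4 was not among those 11, and Zfhx4 was not measured either. Gatad2b, a scaffold of that complex, read 12.03 ± 0.0224 in homozygous and 11.95 ± 0.0139 in wild-type embryos (SD, n = 6 each; difference 0.08 ± 0.019, adjusted p = 0.0895). It was called without variance moderation, with array weights and without wild type 1 and 2. Hdac1 stood at 0.11 ± 0.033 and Mta2 at 0.04 ± 0.022 (adjusted p = 0.147 and 0.422).

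Epithelial genes that Zeb proteins are known to repress were dim in this tissue: 23 of 24 lay below the median probe set. Their median difference was 0.03, against 0.05 over all probe sets dimmer than the median one. The splicing regulator genes Esrp1 and Esrp2 stood at 0.20 ± 0.054 and 0.11 ± 0.060, the keratin gene Krt18 at 0.11 ± 0.059 and the cadherin gene Cdh1 at 0.02 (adjusted p = 0.120, 0.389, 0.400 and 0.847). The other probe sets of Krt18 disagreed, at -0.08 and 0.19. Among 12 other transcription factors of epithelial-mesenchymal transition and E proteins, the median was 0.07, with Id2 at -0.15 ± 0.048, Snai1 at 0.16 ± 0.058 and Snai3 at 0.15 ± 0.065 (adjusted p = 0.166, 0.235 and 0.30). The 11 polarity and adhesion genes had a median of 0.01, with Prkci, Jam3 and Dlg2 at -0.07 ± 0.038, -0.07 ± 0.041 and -0.13 ± 0.084 (adjusted p = 0.386, 0.415 and 0.470).

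Genes of the lineages in which Zeb2 and Zfhx3 act in mouse were not called either. They were listed as lineage genes, not as known targets of the family. The 12 genes of interneurons and the medial eminence had a median of 0.01 (log2). Nkx2-1 read 10.91 ± 0.0350 in homozygous and 10.75 ± 0.0967 in wild-type embryos, a difference of 0.16 ± 0.040 (adjusted p = 0.108), and did not pass, beside Satb1 at 0.06 ± 0.029 and Lhx6 at 0.07 ± 0.040 (0.308 and 0.390). The 13 genes of striatal projection neurons had a median of 0.02, with Rgs9 at 0.11 ± 0.047, Isl1 at -0.10 ± 0.054 and Six3 at 0.05 ± 0.030 (0.280, 0.408 and 0.442).

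**Figure D5:**
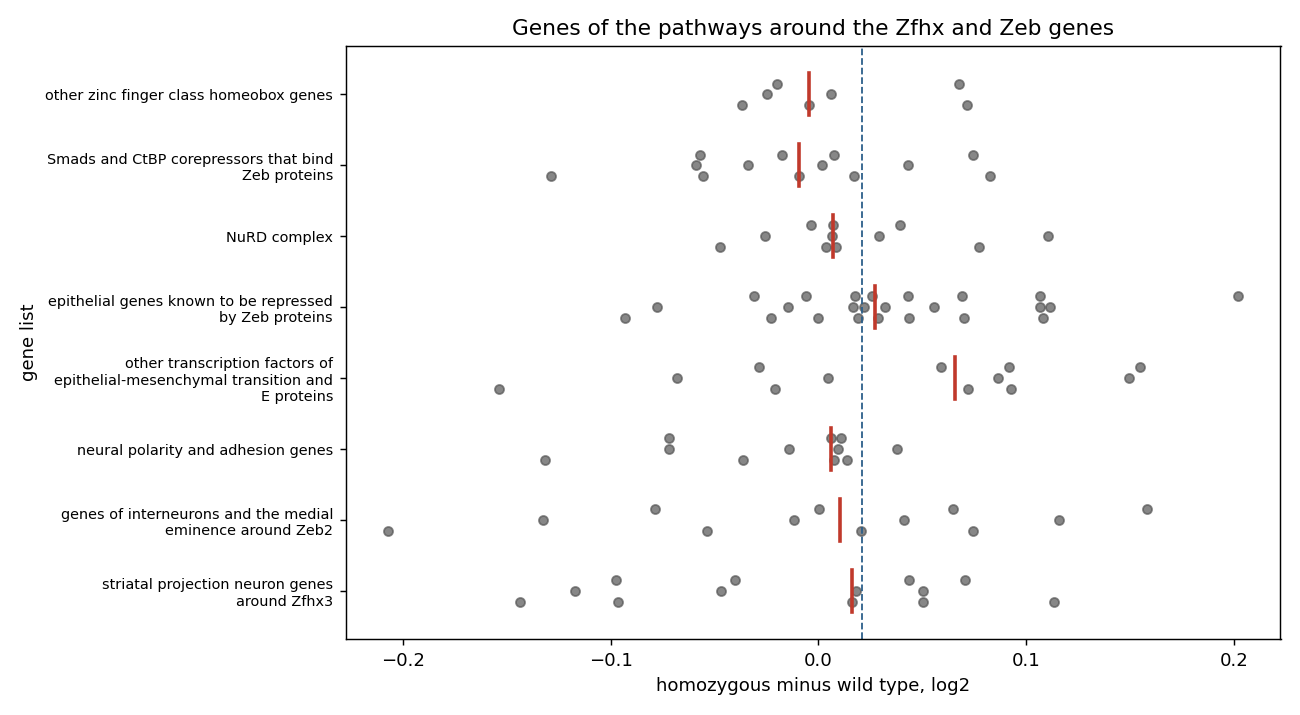
Difference between homozygous and wild-type embryos (log2) of each measured gene in 8 lists, with 1 point per gene. Red bars mark list medians, from -0.01 to 0.07, and the dashed line marks the median over all named genes, 0.02. No gene shown was called.

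Markers of the cell types that a dissection could hold are given beside these results, since in bulk tissue fewer cells of a type and less RNA per cell cannot be told apart. Of 82 markers in 10 lists, 21 had an unadjusted p under 0.05, against 15.1% of all named genes, and 2 were called, against 0.469%. Both were lower in homozygous embryos: Nefl, a neurofilament gene of neurons (-0.42 ± 0.065, adjusted p = 0.0273), and Id4, an inhibitor of differentiation in progenitors (-0.20 ± 0.035, adjusted p = 0.0303). The 12 neuronal markers averaged 11.30 to 11.42 over homozygous arrays and 11.38 to 11.46 over wild-type arrays (log2), and 10 of them stood below 0. The 11 radial glia markers averaged 10.96 to 11.05 over homozygous and 11.02 to 11.15 over wild-type arrays. Of these 11, 6 stood below 0 and 5 above, and 6 had an unadjusted p under 0.05 in limma. Fabp7 stood at -0.41 ± 0.13 and Hes5, in the other direction, at 0.15 ± 0.042 (adjusted p = 0.163 and 0.121). The 7 measured pallial markers averaged 9.22 to 9.44 over homozygous and 9.24 to 9.69 over wild-type arrays, and 6 of them stood below 0. None was called, but some differences were larger than those of Zfhx2: Neurod6 stood at -0.36 ± 0.11, Slc17a7 at -0.25 ± 0.083 and Neurod2 at -0.25 ± 0.095 (adjusted p = 0.146, 0.187 and 0.251). The part of these markers in the Zfhx2 difference was not tested.

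Markers of meningeal, microglial and pericyte cells lay on both sides of the median probe set, while none of the endothelial or erythroid markers lay below it. The 8 meningeal mesenchyme markers averaged 7.10 to 7.22 over homozygous and 7.05 to 7.15 over wild-type arrays, with 6 above 0 and 2 below. The 10 microglia markers averaged 7.58 to 7.77 over homozygous and 7.64 to 7.87 over wild-type arrays, with 3 above 0 and 7 below. The 9 endothelial markers averaged 8.53 to 8.59 over homozygous and 8.48 to 8.66 over wild-type arrays. Of these, 6 stood above 0 and 3 below, with Cdh5 at 0.15 ± 0.033 (adjusted p = 0.0641 in limma). The 7 pericyte markers averaged 8.25 to 8.43 over homozygous and 8.23 to 8.58 over wild-type arrays, with 3 above 0 and 4 below. The 6 choroid plexus markers, all below the median probe set, averaged 6.48 to 6.78 over homozygous and 6.52 to 6.64 over wild-type arrays. The 5 erythroid markers averaged 9.79 to 10.09 over homozygous and 9.81 to 10.31 over wild-type arrays, with 3 below 0 and 2 above. Among them Hbb stood at -0.49 ± 0.15 (adjusted p = 0.155 in limma), the largest difference of all 82 markers. No marker of these lists was called, their part in the Zfhx2 and Zeb values was not tested, and the log2 scale has no zero that would mark an absent gene.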

How the data were processed

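RNA of 12 rat embryos was hybridised to Affymetrix rat Gene ST arrays, 1 array per embryo. The authors deposited 1 log2 intensity for each probe set and array. Partek 6.4 and RMA are named in the submitters' processing notes, with no settings. The log2 scale was read from the values. RMA often includes quantile normalization, after which a shift of all genes together is not visible. Arrays have no read depth, and the number of arrays limits precision (median SE of a difference 0.0576).

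Probe sets were named from the platform annotation (1 gene for 15310, several for 323, none for 13581), and 15279 gene numbers matched RefSeq of GRCr8, which served for names, neighbours and promoter sequences. The genotypes were compared in R 4.3.3 by limma 3.58.1 (lmFit, eBayes with an intensity trend), 2-sided, adjusted by Benjamini-Hochberg over all 29214 probe sets. A gene with several probe sets is given in lists by the brightest. Correlations between probe sets used values with genotype means removed, and their permutation tests shuffled embryos within genotype, with 100000 resamples. Figures used matplotlib 3.10.9.

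The members, gene lists and settings were chosen with earlier results of these data known. Named are all members, the 3 most correlated genes per member and the nearest 2 measured neighbours on either side. Up to 3 genes per list with the smallest p are also named. Cdh1, Dlx1, Gad1 and Fabp7 are named beyond this rule, with their values known. The fit was tested on simulated data. The homozygous and wild-type replicate numbers do not pair embryos by any label.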

Additional observations from a re-analysis of the deposited data

How the results depend on the processing

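In the deposited scale 124 probe sets were called, 66 higher and 58 lower in homozygous embryos. The count was 302 with arrays centred on their medians (35 higher, 267 lower), 3 without an intensity trend, 74 without variance moderation and 414 with array weights. It was 29 with Eif2s3 as a covariate and 582 without wild type 1 and 2, both chosen after the data were seen. Quantile normalization split the calls into 43 higher and 77 lower, and cyclic loess into 44 and 74. With 1 array left out the count ran from 4 to 200, and the calls of the 9 family probe sets from 0 to 1.

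Of those 9, 1 was called in the deposited scale, 2 without dim probe sets, with only named probe sets or with the dim and bright covariate, 4 with array weights and 5 without wild type 1 and 2. None was called without an intensity trend, and 0 of the 3 genes were called when the probe sets of a gene were averaged. Probe set 10783759 was called in 14 of 24 other settings. Of the 103 list genes, 1, Gatad2b, was called without variance moderation, with array weights or without wild type 1 and 2. The median r among 6 Zfhx2 probe sets was 0.27 without wild type 1 and 2, and the comparisons of 1 Zfhx2 probe set with the rest that passed numbered 0 of 7 there. The causes of these changes were not tested.

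With the replicate number as a block, 18 probe sets were called and 0 of the family. The numbers come from the titles, and no label says that they pair embryos. Deviations of same-numbered embryos correlated at -0.08 to 0.26, with 1 of 6 homozygous arrays closest to its own number. Whether same-numbered embryos shared a litter could not be told from so few pairs.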
